A study of Mus musculus with 24 samples.

Results

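Uninjured CD45+ immune cells were compared with uninjured CD31+ endothelial cells sorted from the same tissue, mouse hindlimb skeletal muscle. The comparison used 6 of the 24 libraries of a series of sorted muscle cell populations: the 3 CD45+ and the 3 CD31+ libraries taken before injury, chosen by the sample titles alone. The mice were C57BL/6 animals aged 8 weeks, and the labels give no transgene and no treatment for these libraries. CD45+ cells were collected as hematopoietic cells and CD31+ cells as endothelial cells, 1000 cells per library after a second sort, and no further gate is given for either. The series describes its replicates as biological, but does not say if equal numbers mark 1 mouse, and the p-values reflect only the spread between libraries within groups. Of the 52997 gene symbols in the count table, 16263 had enough counts to be tested. CD45+ and CD31+ cells taken 1 day after cardiotoxin, a venom component that kills muscle fibers, was injected gave a separate set of 6 libraries. In RNA from sorted bulk cells, fewer cells of a type and less RNA per cell cannot be told apart.

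CD45, the product of Ptprc, is a receptor tyrosine phosphatase found on nearly all white blood cells. CD31, the product of Pecam1, is an adhesion molecule of the junctions between endothelial cells that platelets and many white blood cells also carry. Resting skeletal muscle holds resident macrophages, dendritic cells, mast cells and small numbers of lymphocytes, and the blood in its vessels adds monocytes, neutrophils and further lymphocytes. Its endothelium is mostly a capillary bed that passes fatty acids, oxygen and hormones to the fibers, with smaller numbers of arterial, venous and lymphatic cells. The populations meet at the vessel wall, where endothelial selectins, integrin ligands and chemokines engage receptors on white blood cells. Both lineages arise from related precursors in the embryo and share transcription factors such as Fli1, Tal1, Lyl1 and Runx1.

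PU.1, the product of Spi1, is a master transcription factor of macrophages and B cells and binds DNA at a core that can be written GAGGAAGT. The sequences shown here are the 150 bases before the annotated start of 3 genes of white blood cells and of 1 endothelial gene (RefSeq, GRCm38.p6, all on the + strand), printed because each holds that core, in capitals, on either strand. They were picked after the matches had been seen. Vav1 encodes an exchange factor that acts behind antigen receptors, Inpp5d the inositol phosphatase SHIP1, Fmnl1 a leukocyte formin, and Eng the endothelial TGF-beta co-receptor endoglin.
Vav1, chr17:57278950-57279099: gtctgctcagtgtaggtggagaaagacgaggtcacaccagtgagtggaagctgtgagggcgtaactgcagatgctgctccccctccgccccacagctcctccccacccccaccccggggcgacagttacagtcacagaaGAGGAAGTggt
Inpp5d, chr1:87620162-87620311: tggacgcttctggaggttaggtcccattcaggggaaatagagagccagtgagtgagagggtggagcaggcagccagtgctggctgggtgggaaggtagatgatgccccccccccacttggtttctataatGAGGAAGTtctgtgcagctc
Fmnl1, chr11:103170988-103171137: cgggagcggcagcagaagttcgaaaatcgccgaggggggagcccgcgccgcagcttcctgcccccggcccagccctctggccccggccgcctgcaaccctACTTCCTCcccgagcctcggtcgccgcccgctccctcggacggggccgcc
Eng, chr2:32646445-32646594: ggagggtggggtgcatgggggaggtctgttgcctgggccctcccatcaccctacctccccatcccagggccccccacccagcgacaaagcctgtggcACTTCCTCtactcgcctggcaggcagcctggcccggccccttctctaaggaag
The core lies 11 bases before the start in Vav1 and 20 in Inpp5d, on the strand of the gene, and 50 bases before the start in Fmnl1 and 53 in Eng, on the opposite strand.

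Spi1 was at 796, 723 and 719 CPM in CD45+ and 0.213, 0 and 0 CPM in CD31+ cells (CPM, counts scaled by library size; values always in the order of replicates 1, 2 and 3). The single CD31+ value was 1 count, and the ratio between the groups was 8717 (95% counting interval 1564 to 344351). In CD31+ cells Spi1 was thus detected in 1 library alone. Of the genes whose promoters are printed, Vav1 was at 224, 253 and 266 CPM in CD45+ and 0.425, 0 and 0 CPM in CD31+ cells. Inpp5d was at 309.7, 284 and 266 CPM in CD45+ and 58.2, 54.5 and 54.5 CPM in CD31+ cells. Fmnl1 was at 154, 123 and 159 CPM in CD45+ and 45.7, 43.2 and 39.5 CPM in CD31+ cells. In these 3 genes every CD45+ library was above every CD31+ library, although Inpp5d and Fmnl1 were measured well above 0 in both populations. Eng, with the same letters in its window, was at 3615, 2714 and 3318 CPM in CD31+ and 106, 66.2 and 59.0 CPM in CD45+ cells, with every CD45+ library below every CD31+ library.

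A search of both strands of all promoter windows (300 bases, 250 before and 50 after the start) gave the background for those letters. Of the 16263 genes tested, 11347 had a window, and 445 of these (3.92%) held GAGGAAGT. The share was 158 of 2106 (7.50%) among genes over 2-fold higher in CD45+ cells. Among genes over 2-fold higher in CD31+ cells it was 73 of 2093 (3.49%). A gene counted once if any of its windows matched, so genes with more windows had more chances to match. Of all 32851 windows, each counted singly, 3.20% matched, a share in a different unit. The general ETS core CCGGAAGT, which shares the letters GGAAGT with the PU.1 core, was in 8.27% of genes tested with a window. Among genes over 2-fold higher it was in 5.27% for CD45+ and 3.77% for CD31+ cells. The GATA motif AGATAAG was in 2.48%, 2.94% and 2.63% of genes with a window, in the same order. These are matches of letters and not measured binding.

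The transcripts of both sort markers followed the gates. Ptprc (ENSMUSG00000026395.16, chromosome 1, 138062861 to 138175708, GRCm38) was at 702, 777 and 872 CPM in CD45+ and 2.13, 1.41 and 3.83 CPM in CD31+ cells. Pecam1 (ENSMUSG00000020717.19, chromosome 11, 106654217 to 106750628) was at 2222, 1930.0 and 2003 CPM in CD31+ and 25.4, 34.1 and 83.3 CPM in CD45+ cells. Neither gene overlapped between the groups, and Pecam1 in CD45+ replicate 3 was more than 2-fold above the other CD45+ libraries. The log2 fold change, always given as CD45+ minus CD31+ with its standard error, was 8.33 ± 0.52 for Ptprc (adjusted p = 1.01e-10) and -5.44 ± 0.38 for Pecam1 (adjusted p = 7.27e-10).

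Total counts were 3383909 to 4478199 in the CD45+ libraries and 3245117 to 4650542 in the CD31+ libraries, so that 3 counts, the limit that a count of 0 allows, equalled 0.638 to 0.884 CPM in a library. Reads carried no molecular identifiers, so that limit and all counting intervals cover counting error only. Between 20591 and 25501 symbols were detected per library, and mitochondrial genes took 1.46 to 1.61% of counts in CD45+ and 1.09 to 1.16% in CD31+ cells. Across genes, which are not independent replicates, Pearson's r of log2 CPM was 0.940 to 0.953 within CD45+, 0.940 to 0.944 within CD31+ and 0.581 to 0.598 in the 9 pairs between them. CD45+ replicate 3 stood apart from the other CD45+ libraries in its levels of macrophage, B cell and mast cell genes, which are given below library by library.

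In the reported fit nearly equal numbers of genes were higher in each population, whereas with no filter they were 4330 in CD45+ and 3606 in CD31+ cells. Of 16263 genes, 8229 (50.6%) passed at an adjusted p of 0.05, 4077 (25.1%) with the higher level in CD45+ cells and 4152 (25.5%) with the higher level in CD31+ cells. Among them 2999 (18.4%) were over 2-fold higher in CD45+ and 3079 (18.9%) over 2-fold higher in CD31+ cells. Past 8-fold there were 1521 and 1607 genes, and past 32-fold 917 and 899. The median log2 fold change over all genes was -0.024 and the median of its size 0.92. Every CD45+ library was above every CD31+ library in 4437 genes and the reverse held in 4460, 54.7% of genes together. In 8034 genes (49.4%) no difference passed, but in only 1087 of all genes (6.68%) did the 95% interval of the log2 fold change lie within 0.5 of 0.

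The genes over 2-fold higher in CD45+ cells took 42.9 to 44.1% of the CPM of CD45+ libraries and 6.93 to 7.61% of that of CD31+ libraries. The genes over 2-fold higher in CD31+ cells took 42.4 to 45.5% in CD31+ and 7.44 to 8.25% in CD45+ libraries. No count was made in any CD31+ library for 280 of the genes tested that had more than 3 counts over the CD45+ libraries. The reverse held for 428 genes.

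**Figure D1:**
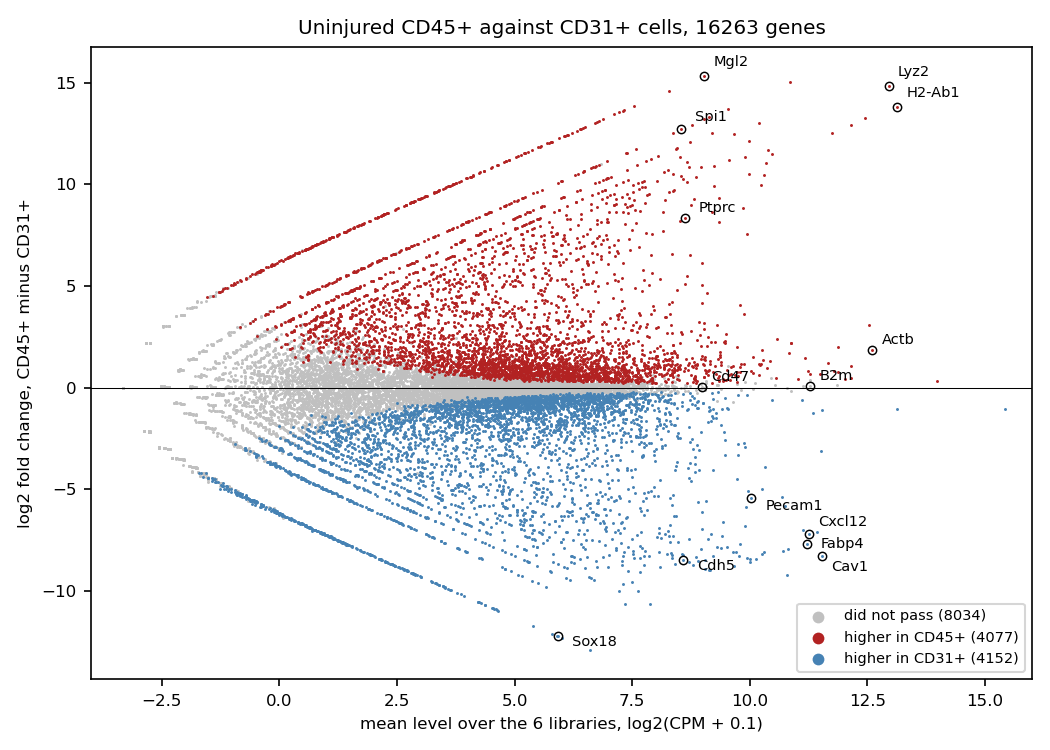
Each point is 1 of 16263 genes, placed by its mean level over the 6 libraries (log2 of CPM plus 0.1) and its log2 fold change, CD45+ minus CD31+; red genes (4077) passed with the higher level in CD45+ cells, blue genes (4152) in CD31+ cells, and grey genes (8034) did not pass. Straight diagonal rows at the left are genes with 0 or very few counts in a group, whose fitted fold change follows their level, and red and blue are about equal in number.

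By size of the fitted difference, the leading genes of CD45+ cells were known from macrophages, dendritic cells and other myeloid cells. Mgl2, a galactose lectin of dendritic cells and macrophages, was at 1269, 1156 and 700.1 CPM in CD45+ cells with 0 counts in all CD31+ libraries, at least 4097-fold higher against 3 counts over the group (adjusted p = 2.96e-08). Retnla, a secreted product of alternatively activated macrophages, was at 4247, 4642 and 2212 CPM in CD45+ and 0, 0.282 and 0 CPM in CD31+ cells, a ratio of 43438 (95% counting interval 7796 to 1715740). Lyz2, lysozyme M, was at 18070.1, 15387 and 14104 CPM in CD45+ and 0.638, 0.282 and 0.589 CPM in CD31+ cells (log2 fold change 14.84 ± 1.78, adjusted p = 4.69e-06). In all 3 genes the lowest CD45+ library was replicate 3, still far above every CD31+ library. The chemokine genes Ccl9 and Ccl6, the receptors Cd48, Cd33 and Cd209f, the pore-forming Mpeg1, the ribonuclease Ear2, the class II gene H2-Ab1 and the lysozyme Lyz1 completed the 12 largest. Cd209f differed most between CD45+ libraries, at 529.9, 366 and 50.9 CPM.

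On the CD31+ side, 6 of the 12 largest fitted differences were of genes with no count in any CD45+ library. The rank of such genes depends on the small prior count of the fit: with genes of 0 counts set to their bounds, 7 of these 12 genes and 5 of the 12 on the CD45+ side remained among the 12 largest. Wscd1 was at 184, 194 and 207 CPM in CD31+ cells, at least 722-fold higher (adjusted p = 9.72e-12). Sox18, a transcription factor of developing vessels, was at 129, 132 and 101 CPM, at least 454-fold higher (adjusted p = 7.32e-12). The other 4 of this kind, Ccdc85a, Samd5, the endothelial protocadherin Pcdh12 and the phosphatase Ptprr, lay between 59.6 CPM (Ptprr, replicate 2) and 159 CPM (Ccdc85a, replicate 3). Dll4, the Notch ligand of arterial and capillary cells, was at 444, 445 and 532 CPM in CD31+ and 0, 0.289 and 0.572 CPM in CD45+ cells, a ratio of 1749 (95% counting interval 598 to 8485). The remaining 5 were the lectin Clec14a, Myct1, the tetraspanin Tspan12, Eps8l2 and the chaperone Hspa12b. Myct1 was at 370.1, 421 and 389 CPM in CD31+ cells. That the groups do not overlap in these 12 genes was a condition of their selection.

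The genes that took the most counts in each population were of different kinds. Among genes over 2-fold higher in CD45+ cells they were the class II genes H2-Ab1, Cd74, H2-Aa and H2-Eb1, then Lyz2, Apoe, Actb and the protease inhibitor Cst3. H2-Ab1 was at 18425, 19211 and 16128 CPM in CD45+ and 0.213, 1.13 and 2.65 CPM in CD31+ cells. Actb, cytoplasmic actin, was at 9288, 9921 and 10069 CPM in CD45+ and 2745, 2974 and 2409 CPM in CD31+ cells (log2 fold change 1.85 ± 0.15, adjusted p = 2.23e-10). Cst3 was at 6726, 7351 and 4605 CPM in CD45+ and 3030.4, 2911 and 2858 CPM in CD31+ cells (log2 fold change 1.09 ± 0.13, adjusted p = 2.58e-07). Actb and Cst3 were thus abundant in both populations, while H2-Ab1 was near 0 in CD31+ cells. Among genes over 2-fold higher in CD31+ cells the leading ones were the caveolin Cav1, the water channel Aqp1, the fatty acid translocase Cd36, the chemokine Cxcl12, the fatty acid binding protein Fabp4, the matrix protein Sparc, the tetraspanin Cd81 and Egfl7. Cav1 was at 5538, 6375 and 5822 CPM in CD31+ and 18.7, 4.63 and 32.3 CPM in CD45+ cells (log2 fold change -8.31 ± 0.42, adjusted p = 7.77e-12). Cd81 was at 3751, 3536 and 3791 CPM in CD31+ and 1855, 1514 and 1253 CPM in CD45+ cells (log2 fold change -1.26 ± 0.15, adjusted p = 1.03e-07), and both groups were high without overlap.

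Some abundant genes differed little. Itm2b, B2m, H2-K1, Eef2 and Hsp90ab1 were among the most abundant genes whose 95% interval lay within 0.5 of 0. Eef2, a translation elongation factor, was at 1709.6, 1641 and 1932 CPM in CD45+ and 1809.5, 1739.9 and 1771 CPM in CD31+ cells, with an interval of -0.24 to 0.22 on the log2 scale. The groups overlapped in Eef2. Without 1 library, differences of Itm2b and Hsp90ab1 passed: Itm2b without CD45+ replicate 3 (adjusted p = 0.0043) and Hsp90ab1 without CD31+ replicate 1 or CD45+ replicate 3 (adjusted p = 0.019 to 0.042).

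Genes common to nearly all white blood cells were higher in CD45+ cells in 30 of 30 listed genes, with a median log2 fold change of 9.10. That list holds Ptprc, by whose product the cells were sorted. Itgb2, the common beta chain of the leukocyte integrins, was at 1015, 966 and 1001 CPM in CD45+ and 0.425, 1.13 and 0 CPM in CD31+ cells (log2 fold change 10.84 ± 0.78, adjusted p = 2.01e-09). Coro1a, an actin-binding coronin, was at 2136, 2316 and 2749 CPM in CD45+ and 1.06, 5.37 and 0.884 CPM in CD31+ cells (log2 fold change 9.98 ± 0.94, adjusted p = 8.54e-08). Replicates of both genes were close to each other in CD45+ cells and low in CD31+ cells. Cyba, a subunit of the NADPH oxidase, was at 767, 751 and 726 CPM in CD45+ and 109, 112 and 103 CPM in CD31+ cells (log2 fold change 2.79 ± 0.18, adjusted p = 2.96e-12). Hcls1, an actin regulator of blood cells, was at 446, 371 and 406 CPM in CD45+ and 54.0, 48.3 and 34.8 CPM in CD31+ cells (log2 fold change 3.15 ± 0.23, adjusted p = 9.60e-10). Cyba and Hcls1 were measured well above 0 in CD31+ cells, while the integrin chain Itgam and the surface proteins Cd52 and Cd53 were each at 0 in 2 of 3 CD31+ libraries. Summed over the list, CD45+ libraries held 21412, 20846 and 21523 CPM and CD31+ libraries 344, 342 and 279.7 CPM.

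Of 20 tissue macrophage genes, 19 were higher in CD45+ cells, with a median of 9.68 (9.31 with genes of 0 counts at their bounds). Csf1r, the receptor for colony stimulating factor 1, was at 2441, 2251 and 1401 CPM in CD45+ and 2.55, 0 and 1.18 CPM in CD31+ cells (log2 fold change 10.52 ± 0.97, adjusted p = 6.88e-08). C1qc, a chain of complement C1q, was at 2973, 2726 and 1319 CPM in CD45+ and 0, 0.565 and 0.295 CPM in CD31+ cells, a ratio of 9229.7 (95% counting interval 3158 to 44758). Folr2, a folate receptor of resident macrophages, was at 296, 266 and 51.2 CPM in CD45+ and 0, 0.282 and 0 CPM in CD31+ cells, a ratio of 2443 (95% counting interval 438 to 96545). In each of these genes CD45+ replicate 3 was the lowest, most of all in Folr2, and no CD31+ library came near it. Mertk, the receptor kinase for uptake of dead cells, did not pass, at 46.04, 43.4 and 21.2 CPM in CD45+ and 50.8, 37.3 and 61.9 CPM in CD31+ cells (interval -1.06 to 0.18). Lyve1, a marker of perivascular macrophages and of lymphatic vessels alike, was at 599.7, 321 and 115 CPM in CD45+ and 97.4, 10.7 and 0 CPM in CD31+ cells (log2 fold change 3.22 ± 1.06, adjusted p = 0.018). Lyve1 was uneven in both groups, its log2 fold change was 6.05 without CD31+ replicate 1, and its call was lost without CD31+ replicate 2 or CD45+ replicate 1 (adjusted p = 0.065 to 0.086).

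Transcripts of neutrophils and monocytes were present in all 3 CD45+ libraries. Of 17 neutrophil genes listed 13 were tested, and 13 were higher in CD45+ cells (median 8.36). S100a8, a calcium-binding protein of neutrophils, was at 594, 344 and 1040.4 CPM in CD45+ and 0, 0.282 and 0 CPM in CD31+ cells, a ratio of 7638 (95% counting interval 1370.5 to 301739). Replicate 3 was the highest and replicate 2 the lowest. Of 14 monocyte genes 12 were higher in CD45+ cells. Ccr2, the receptor that brings monocytes into tissue, was at 472, 326 and 334 CPM in CD45+ and 1.06, 0.847 and 0.589 CPM in CD31+ cells (log2 fold change 8.74 ± 0.61, adjusted p = 1.20e-08). Spn, a surface mucin of blood monocytes and lymphocytes, was at 62.9, 91.1 and 68.7 CPM with 0 counts in CD31+ cells (at least 285-fold higher). Ace and Cd36, listed for monocytes, were higher in CD31+ cells. With Cd36 included, the summed level of the list overlapped between the groups, at 5069, 4395 and 4804 CPM in CD45+ and 5531, 4759.7 and 6383 CPM in CD31+ cells.

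Of 17 dendritic cell genes 15 were higher in CD45+ cells, with markers of several kinds of dendritic cell and a median of 6.69. Xcr1, of type 1 dendritic cells, was at 49.8, 73.8 and 43.8 CPM in CD45+ and 0.425, 0.847 and 0.295 CPM in CD31+ cells (log2 fold change 6.69 ± 0.76, adjusted p = 5.88e-07). Siglech, of plasmacytoid dendritic cells, was at 125, 224 and 63.5 CPM in CD45+ and 0.425, 0 and 0.295 CPM in CD31+ cells, a ratio of 529 (95% counting interval 181 to 2567). Irf4, a factor of type 2 dendritic cells and B cells, was at 122, 97.2 and 91.3 CPM with 0 counts in CD31+ cells. All CD45+ libraries held these transcripts, with Siglech over 3-fold higher in replicate 2 than in replicate 3. Zbtb46 and Fscn1 on this list were higher in CD31+ cells.

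Lymphocyte genes differed between the CD45+ libraries. Of 15 B cell genes, 14 were higher in CD45+ and 1 (Ebf1) in CD31+ cells, with a median of 8.97. Cd79a, a signalling chain of the B cell receptor, was at 199, 466 and 915 CPM in CD45+ and 0, 0.565 and 0 CPM in CD31+ cells, a ratio of 2943 (95% counting interval 814 to 24304). Ms4a1, the surface protein CD20, was at 82.1, 207 and 409.6 CPM in CD45+ cells. In both, replicate 3 was over 4-fold above replicate 1. Of 20 T cell genes 18 were tested, and 17 were higher in CD45+ cells (11 with DESeq2). Cd3e, a chain of the T cell receptor complex, was at 12.1, 28.1 and 38.6 CPM in CD45+ and 0.638, 0 and 0.295 CPM in CD31+ cells (log2 fold change 6.18 ± 0.89, adjusted p = 6.84e-06). Cd8b1, of cytotoxic T cells, was at 15.9, 35.3 and 59.2 CPM in CD45+ and 0, 0 and 0.589 CPM in CD31+ cells, a ratio of 206 (95% counting interval 56.8 to 1710.1). Both were lowest in replicate 1, and no CD31+ library overlapped. Of 15 natural killer and innate lymphoid genes 14 were tested, and 12 were higher in CD45+ and 1 (Gata3) in CD31+ cells. Gzma, a granzyme, was at 61.0, 148 and 192 CPM with 0 counts in CD31+ cells, and Ncr1, the receptor NKp46, was at 22.8, 28.1 and 26.9 CPM in CD45+ and 0, 0.565 and 0.295 CPM in CD31+ cells.

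Mast cell transcripts came almost entirely from replicates 1 and 2 of the CD45+ cells. Cma1, a mast cell chymase, was at 559.8, 135 and 7.73 CPM with 0 counts in CD31+ cells (at least 991-fold higher, adjusted p = 0.0059). Tpsb2, a tryptase, was at 504, 135 and 0.286 CPM in CD45+ and 0, 0.282 and 0 CPM in CD31+ cells (adjusted p = 0.036). Mcpt4, another chymase, was at 559.6, 128 and 0.286 CPM in CD45+ and 0.213, 0 and 0 CPM in CD31+ cells and did not pass (adjusted p = 0.075). CD45+ replicate 3 was at the CD31+ level in Tpsb2 and Mcpt4, and the call of Tpsb2 was lost without CD31+ replicate 1, CD31+ replicate 2, CD31+ replicate 3, CD45+ replicate 1 or CD45+ replicate 2 (adjusted p = 0.056 to 0.13). Of the 15 genes listed for mast cells, basophils and eosinophils 10 were tested, 7 were higher in CD45+ cells (4 with limma voom, 3 with the 6 libraries alone) and 3 did not pass. Kit, the stem cell factor receptor of mast cells, was among the 3, at 63.6, 41.9 and 13.2 CPM in CD45+ and 19.3, 46.6 and 16.8 CPM in CD31+ cells. Ccr3, the eotaxin receptor of eosinophils, was at 25.9, 6.07 and 6.01 CPM in CD45+ and 0.213, 0 and 0 CPM in CD31+ cells.

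**Figure D2:**
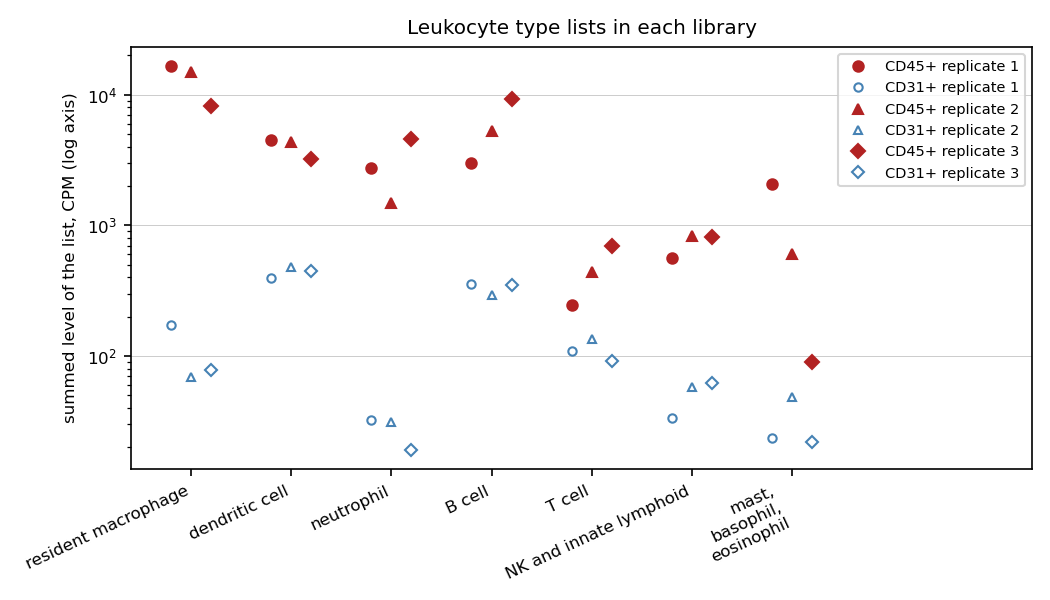
The y axis gives, on a log scale, the summed CPM of the tested genes of 7 white cell type lists in each of the 6 libraries. Filled red symbols are CD45+ libraries and open blue symbols CD31+ libraries, with the same shape for the same replicate number. The monocyte list, whose sums overlapped between the groups, is not plotted. CD45+ replicate 3 is lowest for macrophage genes (8146 CPM against 16492 and 14824) and mast cell genes and highest for B cell genes (9222 against 2998 and 5242), and for each of the 7 lists plotted every CD31+ library lies below every CD45+ library.

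Class II antigen presentation, by which professional antigen-presenting cells show peptides to helper T cells, was higher in CD45+ cells in 14 of 14 listed genes. The median was 10.02 (9.31 with a gene of 0 counts at its bound). Cd74, the invariant chain, was at 11536, 12015 and 9961 CPM in CD45+ and 1.28, 0 and 2.06 CPM in CD31+ cells (log2 fold change 13.26 ± 1.35, adjusted p = 2.67e-07). Ciita, the factor that switches on class II genes, was at 176, 222 and 243 CPM in CD45+ and 2.55, 2.26 and 1.77 CPM in CD31+ cells (log2 fold change 6.57 ± 0.44, adjusted p = 9.28e-12). H2-Ob, a peptide-loading chain of B cells, was at 145, 286 and 502 CPM in CD45+ and 4.89, 4.52 and 3.83 CPM in CD31+ cells (log2 fold change 6.12 ± 0.50, adjusted p = 1.84e-08). Cd74 and Ciita were even across CD45+ libraries, whereas H2-Ob was over 3-fold higher in replicate 3 than in replicate 1. Cd40, a co-stimulatory receptor that endothelium also carries, had the smallest difference, at 98.2, 94.0 and 79.3 CPM in CD45+ and 32.9, 40.1 and 46.9 CPM in CD31+ cells (log2 fold change 1.18 ± 0.33, adjusted p = 0.0042).

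Class I antigen presentation, which nearly all cells carry out, was about level: 3 of 18 listed genes were higher in CD45+ and 5 in CD31+ cells, 10 did not pass, and the median was 0.07. B2m, the light chain of class I molecules, was at 2602, 2579 and 2493 CPM in CD45+ and 2253, 2291 and 2816 CPM in CD31+ cells (interval -0.24 to 0.36). H2-K1 was at 2205, 2224 and 2467 CPM in CD45+ and 1837, 2188 and 2581 CPM in CD31+ cells (interval -0.25 to 0.38). The groups overlapped in both. Erap1, a peptidase that trims class I peptides, was at 142, 110.2 and 116 CPM in CD31+ and 54.8, 53.2 and 57.0 CPM in CD45+ cells (log2 fold change -1.16 ± 0.13, adjusted p = 6.42e-08). H2-T22, Tap2 and Tapbp were also higher in CD31+ cells, and H2-D1 was higher in CD45+ cells by 0.41 on the log2 scale. The counting of reads shared between near-identical class I genes is not given, so single H2 genes are uncertain.

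Sensors and effectors of innate immunity lay mostly on the CD45+ side. Of 13 Fc receptor and NADPH oxidase genes, 12 were higher in CD45+ cells (median 9.47). Ncf4, an oxidase subunit of phagocytes, was at 221, 167 and 213 CPM in CD45+ and 0, 0.565 and 0.295 CPM in CD31+ cells, a ratio of 783 (95% counting interval 268 to 3799). Fcgrt, the neonatal Fc receptor that recycles IgG and albumin, was at 807, 742 and 242 CPM in CD45+ and 428, 477 and 543 CPM in CD31+ cells and did not pass (adjusted p = 0.41). CD45+ replicate 3 was low in Fcgrt, which passed with the higher level in CD45+ cells without CD45+ replicate 3 (adjusted p = 0.0014). Of 24 Toll-like, NOD and inflammasome genes, 20 were higher in CD45+ and 1 (Nod1) in CD31+ cells. Tlr13, a sensor of bacterial RNA, was at 104, 79.5 and 93.9 CPM with 0 counts in CD31+ cells (at least 362-fold higher). Tlr4, the receptor for bacterial endotoxin, was at 21.4, 25.5 and 18.9 CPM in CD45+ and 5.95, 6.21 and 2.36 CPM in CD31+ cells (log2 fold change 2.15 ± 0.34, adjusted p = 1.10e-05), and Tlr3 at 10.4, 10.1 and 8.30 CPM in CD45+ and 17.4, 13.3 and 8.25 CPM in CD31+ cells without passing.

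Of 22 complement genes listed 21 were tested, 15 were higher in CD45+ and 5 in CD31+ cells. The 15 included the C1q chains and C5ar1, the receptor of the anaphylatoxin C5a, at 547, 411 and 468 CPM in CD45+ and 0, 0.565 and 0 CPM in CD31+ cells, a ratio of 2795 (95% counting interval 773 to 23081). Properdin (Cfp), which stabilises the alternative pathway, was at 1596, 1421 and 856 CPM in CD45+ and 2.98, 1.69 and 9.43 CPM in CD31+ cells (log2 fold change 8.14 ± 0.52, adjusted p = 2.53e-10). C4b was at 261, 229 and 18.3 CPM in CD45+ cells, with replicate 3 over 10-fold below the others. The 5 genes higher in CD31+ cells were Cd93, Cd59a, Serping1, C1s1 and Cd46. Cd93, a C-type lectin of endothelium and myeloid cells, was at 911, 833 and 861 CPM in CD31+ and 117, 104 and 87.0 CPM in CD45+ cells (log2 fold change -3.08 ± 0.16, adjusted p = 4.66e-13). Cd59a, which blocks the membrane attack complex, was at 137, 113 and 124 CPM in CD31+ and 1.90, 0.289 and 2.29 CPM in CD45+ cells (log2 fold change -6.34 ± 0.43, adjusted p = 1.12e-11). Neither overlapped.

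Signalling proteins of white blood cells were higher in CD45+ cells in 26 of 28 listed genes (median 5.19). Blnk, an adaptor of the B cell receptor, was at 234, 236 and 265 CPM in CD45+ and 0.850, 1.13 and 2.06 CPM in CD31+ cells (log2 fold change 7.54 ± 0.30, adjusted p = 1.48e-15). Btk, a kinase of B and myeloid cells, was at 205, 200.4 and 243 CPM in CD45+ and 0.213, 2.26 and 0 CPM in CD31+ cells (log2 fold change 8.07 ± 0.43, adjusted p = 3.08e-11). Both were even across the CD45+ libraries, unlike Cd79a. Plcg1 was the 1 listed gene higher in CD31+ cells. Cytoskeletal genes of white blood cells were higher in CD45+ cells in 23 of 25 (median 7.03). Lsp1, an actin-binding protein of leukocytes, was at 2515, 2512 and 2524 CPM in CD45+ and 0.425, 2.54 and 2.65 CPM in CD31+ cells (log2 fold change 10.47 ± 0.82, adjusted p = 7.41e-09). Elmo1, a partner of Dock proteins in cell movement, was at 191, 233 and 220.1 CPM in CD45+ and 235, 208 and 196 CPM in CD31+ cells (interval -0.38 to 0.40), with overlapping groups.

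Hematopoietic transcription factors were higher in CD45+ cells in 29 of 31 tested (32 listed), with a median of 5.21. Irf8, a factor of monocytes and dendritic cells, was at 468, 434 and 528 CPM in CD45+ and 10.4, 4.24 and 14.1 CPM in CD31+ cells (log2 fold change 5.63 ± 0.28, adjusted p = 1.55e-13). Runx1, needed for the first blood stem cells to leave endothelium in the embryo, was at 78.8, 80.1 and 72.1 CPM in CD45+ and 1.28, 0.565 and 0.589 CPM in CD31+ cells (log2 fold change 6.45 ± 0.36, adjusted p = 2.96e-13). Neither overlapped, and replicates were even.

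Lysosomal genes were higher in CD45+ cells in 28 of 34, with a median of 1.82. Ctss, a cathepsin of antigen-presenting cells, was at 2867, 2608 and 2330.4 CPM in CD45+ and 2.55, 0.565 and 0 CPM in CD31+ cells (log2 fold change 11.07 ± 1.06, adjusted p = 3.69e-07). Ctsb, a cathepsin of most cells, was at 3675, 3479 and 2143 CPM in CD45+ and 714, 678 and 638 CPM in CD31+ cells (log2 fold change 2.20 ± 0.15, adjusted p = 1.42e-11). Ctsl went the other way, at 416, 465 and 471 CPM in CD31+ and 239.7, 208 and 96.5 CPM in CD45+ cells (log2 fold change -1.31 ± 0.20, adjusted p = 1.39e-05). None of these overlapped. The lysosomal channel Mcoln1 was also higher in CD31+ cells, a call lost without CD31+ replicate 1 or CD45+ replicate 3 (adjusted p = 0.070 to 0.13). Iron and heme handling was higher in CD45+ cells in 16 of 17 genes tested (18 listed). Slc40a1, the iron exporter ferroportin, was at 77.1, 56.4 and 79.0 CPM in CD45+ and 0.850, 2.26 and 0 CPM in CD31+ cells (log2 fold change 6.07 ± 0.52, adjusted p = 6.33e-10), and the ferritin chains Ftl1 and Fth1 differed by 2.18 and 1.47 on the log2 scale.

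**Figure D3:**
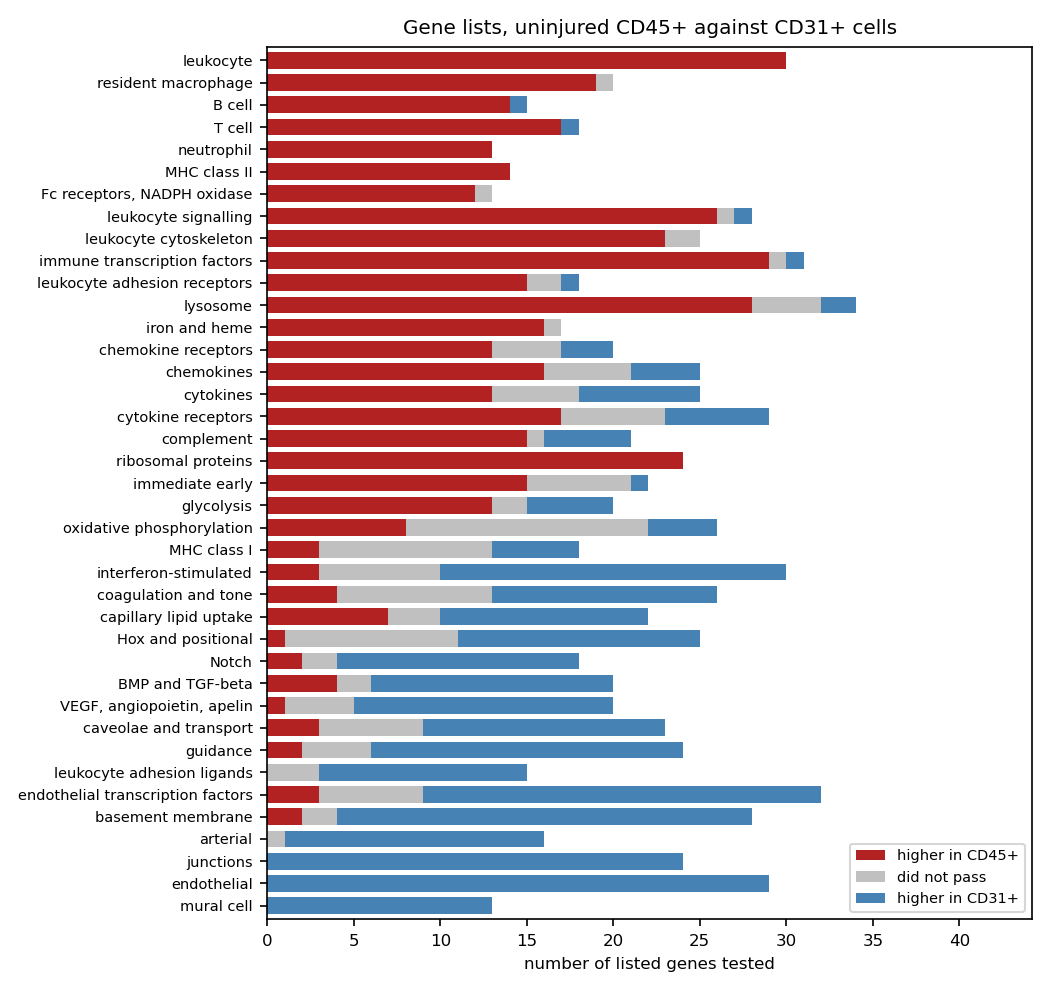
Horizontal bars count the tested genes of each list that were higher in CD45+ cells (red), higher in CD31+ cells (blue) or did not pass (grey); over all genes, 25.1% and 25.5% passed in each direction. The bars of genes common to white blood cells (30 of 30) and of class II genes (14 of 14) are all red. Those of endothelial identity (29 of 29) and junction genes (24 of 24) are all blue, while the bars of class I and respiratory chain genes are mostly grey. The bar of genes common to white blood cells counts the sort marker Ptprc, and that of endothelial identity counts Pecam1.

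Endothelial identity genes were higher in CD31+ cells in 29 of 29 listed genes, with a median log2 fold change of -8.18. That list holds Pecam1, by whose product the cells were sorted. Cdh5, VE-cadherin of endothelial junctions, was at 751, 750.2 and 793 CPM in CD31+ and 4.27, 0.578 and 1.14 CPM in CD45+ cells (log2 fold change -8.48 ± 0.37, adjusted p = 7.65e-14). Kdr, the main receptor for VEGF-A, was at 904, 752 and 845 CPM in CD31+ and 3.32, 0.578 and 2.29 CPM in CD45+ cells (log2 fold change -8.59 ± 0.36, adjusted p = 1.77e-13). Adgrl4, an adhesion receptor of endothelium, was at 699, 623 and 711 CPM in CD31+ and 1.66, 0.868 and 2.29 CPM in CD45+ cells (log2 fold change -8.69 ± 0.25, adjusted p = 5.12e-17). CD31+ replicates of these genes were close to each other, and every CD45+ library was below 5 CPM. Icam2, which white blood cells also carry, had the smallest difference on the list, at 453, 441 and 452 CPM in CD31+ and 31.6, 43.4 and 77.9 CPM in CD45+ cells (log2 fold change -3.14 ± 0.26, adjusted p = 1.82e-08). Summed over the list, CD31+ libraries held 32415, 29648 and 32728 CPM and CD45+ libraries 361, 331 and 529 CPM. CD45+ replicate 3 was the highest CD45+ library in Cldn5 (2.61, 2.60 and 14.9 CPM) and Esam (5.22, 1.16 and 19.2 CPM), both tight junction genes, but not in Cdh5 or Kdr.

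Genes of pericytes and smooth muscle, cells on the outside of vessels, were higher in CD31+ cells too. All 13 tested (14 listed) passed, and their sum was 990.3, 956 and 691 CPM in CD31+ and 20.4, 21.7 and 35.2 CPM in CD45+ libraries. Acta2, smooth muscle actin, was at 363, 395 and 304 CPM in CD31+ and 12.1, 6.07 and 17.7 CPM in CD45+ cells. Rgs5, of pericytes, was at 235, 226 and 111 CPM in CD31+ and 2.85, 0.868 and 5.72 CPM in CD45+ cells. Pdgfrb, the PDGF receptor of pericytes, was at 31.9, 34.7 and 21.2 CPM in CD31+ and 0, 2.60 and 0.572 CPM in CD45+ cells. None of these was at 0 in a CD31+ library, and CD31+ replicate 3 was the lowest in each. Their part in the differences between CD31+ and CD45+ cells, such as those of the basement membrane genes given below, was not tested.

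Endothelial transcription factors were divided: of 32 tested (34 listed), 23 were higher in CD31+ cells, 3 in CD45+ cells and 6 did not pass. Epas1, the hypoxia factor HIF-2alpha, was at 1786, 1372 and 1657 CPM in CD31+ and 7.12, 4.34 and 5.72 CPM in CD45+ cells (log2 fold change -8.11 ± 0.25, adjusted p = 2.93e-17). Sox17, a relative of Sox18 in arteries, was at 378, 353 and 364 CPM in CD31+ and 2.14, 0 and 1.72 CPM in CD45+ cells (log2 fold change -8.07 ± 0.38, adjusted p = 4.14e-11). Meox2, which controls fatty acid uptake in heart and muscle capillaries, was at 627, 729.6 and 755 CPM in CD31+ and 5.22, 0.868 and 4.58 CPM in CD45+ cells (log2 fold change -7.58 ± 0.63, adjusted p = 1.38e-08). Its partner Tcf15 was at 76.9, 50.3 and 75.5 CPM in CD31+ and 0.237, 0 and 0 CPM in CD45+ cells, a ratio of 764 (95% counting interval 137 to 30200.3). All of these were low in CD45+ cells, with no overlap.

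Factors that blood cells also use lay closer together. Fli1 was at 234, 251 and 276 CPM in CD31+ and 149.5, 118 and 121 CPM in CD45+ cells (log2 fold change -0.97 ± 0.20, adjusted p = 2.44e-04). Ets1, a factor of lymphocytes and endothelium, was at 554, 484 and 457 CPM in CD31+ and 51.5, 86.2 and 199 CPM in CD45+ cells (log2 fold change -2.16 ± 0.33, adjusted p = 2.06e-05). Ets1 was highest among CD45+ cells in replicate 3, the library with the most B and T cell transcripts. Lyl1, a bHLH factor of blood stem cells and vessels, went the other way, at 238, 274 and 190.1 CPM in CD45+ and 45.3, 78.2 and 64.5 CPM in CD31+ cells (log2 fold change 1.90 ± 0.23, adjusted p = 1.56e-07). Klf2, a flow-responsive factor of endothelium and a quiescence factor of lymphocytes, was at 52.9, 63.6 and 73.8 CPM in CD45+ and 32.1, 13.6 and 23.9 CPM in CD31+ cells (log2 fold change 1.44 ± 0.30, adjusted p = 3.20e-04). Etv6 was the third factor higher in CD45+ cells.

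Positional genes had a higher summed level in CD31+ cells, at 298, 297 and 289 CPM in CD31+ and 19.2, 20.0 and 21.5 CPM in CD45+ libraries. Of the 32 Hox and limb position genes listed 25 were tested, 14 were higher in CD31+ cells, 1 (Meis1) in CD45+ cells and 10 did not pass. The median was -4.21 (-3.02 with genes of 0 counts at their bounds, -2.11 with limma voom and -6.69 over the 13 genes tested in the 6 libraries alone), and the call of Meis1 was lost without CD31+ replicate 1, CD31+ replicate 3 or CD45+ replicate 1 (adjusted p = 0.051 to 0.061). Hoxa7 was at 63.8, 69.2 and 71.3 CPM in CD31+ and 0.475, 0 and 1.43 CPM in CD45+ cells (log2 fold change -6.70 ± 0.44, adjusted p = 6.22e-12). Hoxb7 was at 74.0, 58.5 and 62.5 CPM in CD31+ and 0, 0.289 and 2.29 CPM in CD45+ cells (log2 fold change -6.27 ± 0.62, adjusted p = 4.04e-08). Hoxb9 was at 11.5, 16.1 and 9.43 CPM and Hoxd9 at 7.23, 3.67 and 11.5 CPM in CD31+ cells, both with 0 counts in CD45+ cells. Every CD31+ library held counts of all 4 genes.

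Growth factor pathways of vessels had receptors and ligands on the CD31+ side. Of 20 VEGF, angiopoietin and apelin genes, 15 were higher in CD31+ and 1 (Vegfb) in CD45+ cells, the latter a call lost without CD31+ replicate 3 (adjusted p = 0.064). Among receptors, Flt1, which traps VEGF-A, was at 997, 1244 and 1848 CPM in CD31+ and 9.49, 9.26 and 23.5 CPM in CD45+ cells (log2 fold change -6.61 ± 0.45, adjusted p = 2.31e-09). Tie1, a co-receptor for angiopoietins, was at 1274, 963 and 1115 CPM in CD31+ and 3.56, 0 and 2.86 CPM in CD45+ cells (log2 fold change -8.96 ± 0.47, adjusted p = 6.22e-12). Aplnr, the apelin receptor, was at 794, 851 and 633 CPM in CD31+ and 2.37, 3.76 and 1.43 CPM in CD45+ cells (log2 fold change -8.23 ± 0.35, adjusted p = 2.08e-13). All 3 were far above the CD45+ libraries, with Flt1 highest in CD31+ replicate 3. Among ligands, Angpt2, which loosens vessels, was at 114, 63.0 and 107 CPM in CD31+ and 3.32, 1.74 and 2.86 CPM in CD45+ cells (log2 fold change -5.13 ± 0.53, adjusted p = 9.64e-08). Apln, apelin itself, was at 12.3, 45.5 and 29.8 CPM in CD31+ and 0.237, 0 and 0.286 CPM in CD45+ cells, a ratio of 153 (95% counting interval 42.1 to 1273). Nrp1, a co-receptor for VEGF and semaphorins, was high in both, at 1686, 1422 and 1769 CPM in CD31+ and 308, 299 and 121 CPM in CD45+ cells (log2 fold change -2.74 ± 0.23, adjusted p = 2.32e-09), with the lowest value in CD45+ replicate 3.

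In the Notch pathway 14 of 18 genes were higher in CD31+ cells and 2 in CD45+ cells, and the receptors were divided. Notch4, an endothelial receptor, was at 255, 192 and 264 CPM in CD31+ and 3.56, 3.76 and 4.01 CPM in CD45+ cells (log2 fold change -5.97 ± 0.30, adjusted p = 7.09e-14). Notch1 was at 376, 345 and 495 CPM in CD31+ and 124, 129 and 132 CPM in CD45+ cells (log2 fold change -1.66 ± 0.19, adjusted p = 1.14e-07). Notch2, the receptor of marginal zone B cells and macrophages, was at 471, 439 and 439 CPM in CD45+ and 17.0, 11.02 and 12.1 CPM in CD31+ cells (log2 fold change 5.05 ± 0.19, adjusted p = 5.44e-16). Notch1 and Notch4 were thus higher in CD31+ cells and Notch2 in CD45+ cells, in every library. Rbpj, the DNA-binding partner of all Notch receptors, was higher in CD45+ cells, at 114, 93.4 and 69.0 CPM in CD45+ and 9.57, 11.6 and 12.97 CPM in CD31+ cells (log2 fold change 3.03 ± 0.20, adjusted p = 4.60e-12). The ligand Jag1 was at 105, 109 and 93.1 CPM in CD31+ and 2.37, 5.21 and 7.73 CPM in CD45+ cells (log2 fold change -4.35 ± 0.29, adjusted p = 9.85e-12), and the target Hey1 at 219, 164 and 189 CPM in CD31+ and 0.237, 0 and 0.572 CPM in CD45+ cells, a ratio of 719.8 (95% counting interval 246 to 3493).

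BMP and TGF-beta signalling had 14 of 20 genes higher in CD31+ and 4 in CD45+ cells. Acvrl1, the receptor ALK1, was at 505, 399.7 and 506 CPM in CD31+ and 145, 135 and 105 CPM in CD45+ cells (log2 fold change -1.87 ± 0.17, adjusted p = 1.04e-09). Id1, a target of that receptor, was at 154, 176 and 227 CPM in CD31+ and 3.32, 1.16 and 2.29 CPM in CD45+ cells (log2 fold change -6.31 ± 0.42, adjusted p = 1.21e-10). Tgfbr2 was higher in CD45+ cells, at 301, 294 and 172 CPM in CD45+ and 127, 151 and 119 CPM in CD31+ cells (log2 fold change 0.95 ± 0.20, adjusted p = 3.19e-04), as were Tgfbr1, Id2 and Bmp2. Id1 was near 0 in CD45+ cells although Acvrl1 was measured there. Of 24 guidance genes 18 were higher in CD31+ and 2 in CD45+ cells. Ephb4, an ephrin receptor of veins, was at 191, 178 and 269 CPM in CD31+ and 0.475, 0 and 1.14 CPM in CD45+ cells (log2 fold change -8.56 ± 0.39, adjusted p = 1.07e-14). Sema4d, a semaphorin of lymphocytes, was at 111, 95.4 and 140.0 CPM in CD45+ and 1.06, 2.54 and 0.295 CPM in CD31+ cells (log2 fold change 6.45 ± 0.52, adjusted p = 7.70e-10), and Plxnc1, a plexin of myeloid cells, was the other gene higher in CD45+ cells.

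Structural genes of the vessel wall were mostly on the CD31+ side. Of 25 junction genes 24 were tested and 24 were higher in CD31+ cells, with a median of -6.08. Tjp1, the scaffold ZO-1, was at 197, 178 and 215 CPM in CD31+ and 1.66, 1.74 and 5.15 CPM in CD45+ cells (log2 fold change -6.12 ± 0.30, adjusted p = 4.39e-14). Ctnnb1, beta-catenin, was at 546, 479 and 515 CPM in CD31+ and 59.8, 78.7 and 77.3 CPM in CD45+ cells (log2 fold change -2.84 ± 0.17, adjusted p = 1.17e-12), present in both populations. Of 28 basement membrane genes 24 were higher in CD31+ and 2 in CD45+ cells. Col4a1, a chain of type IV collagen, was at 978, 1019 and 1004 CPM in CD31+ and 6.88, 8.68 and 8.87 CPM in CD45+ cells (log2 fold change -6.94 ± 0.31, adjusted p = 1.90e-13). Lama5, a laminin chain, was at 410.4, 307 and 357 CPM in CD31+ and 3.80, 1.74 and 0.286 CPM in CD45+ cells (log2 fold change -7.44 ± 0.33, adjusted p = 1.58e-14). Fn1, fibronectin, was higher in CD45+ cells, at 1024, 857 and 874 CPM in CD45+ and 130.3, 108 and 134 CPM in CD31+ cells (log2 fold change 2.89 ± 0.38, adjusted p = 3.74e-06), as was the integrin chain Itgav.

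Of 23 caveolar and transport genes, 14 were higher in CD31+ and 3 in CD45+ cells. Cavin2, a coat protein of caveolae, was at 2126, 1982 and 2014 CPM in CD31+ and 3.09, 2.89 and 10.02 CPM in CD45+ cells (log2 fold change -8.60 ± 0.42, adjusted p = 2.48e-12). Plvap, which forms the diaphragms of caveolae, was at 323, 389 and 499 CPM in CD31+ and 0.475, 0.289 and 1.43 CPM in CD45+ cells (log2 fold change -9.09 ± 0.46, adjusted p = 9.66e-13). Both were near 0 in CD45+ cells. The 3 genes higher in CD45+ cells were Ehd4, the amino acid transporter Slc1a5 and the transferrin receptor Tfrc, the last at 34.4, 49.2 and 17.5 CPM in CD45+ and 0.638, 2.26 and 6.48 CPM in CD31+ cells (log2 fold change 3.50 ± 0.51, adjusted p = 4.23e-06).

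Lipid handling genes were found on both sides. Of 22 listed genes 12 were higher in CD31+ cells, 7 in CD45+ cells and 3 did not pass. Gpihbp1, which carries lipoprotein lipase across capillary endothelium, was at 1601, 1589 and 2128 CPM in CD31+ and 7.36, 1.16 and 16.6 CPM in CD45+ cells (log2 fold change -7.73 ± 0.64, adjusted p = 6.02e-06). Fabp4, which binds fatty acids inside the cell, was at 4919, 4339.9 and 4896 CPM in CD31+ and 18.5, 17.6 and 31.2 CPM in CD45+ cells (log2 fold change -7.72 ± 0.51, adjusted p = 5.54e-10). Cd36, which takes up fatty acids at the surface, was at 5223, 4506 and 6031 CPM in CD31+ and 716, 659 and 425 CPM in CD45+ cells (log2 fold change -3.13 ± 0.32, adjusted p = 3.06e-07). Gpihbp1 and Fabp4 were low in CD45+ cells, while Cd36 was measured well above 0 in every CD45+ library. Lpl, the lipase itself, overlapped between the groups, at 1249.7, 924 and 989 CPM in CD45+ and 926, 766 and 1600.4 CPM in CD31+ cells (interval -0.48 to 0.37). Apoe was at 13455, 11844 and 6503 CPM in CD45+ and 1313, 1256 and 1165 CPM in CD31+ cells (log2 fold change 3.09 ± 0.45, adjusted p = 1.86e-05), and the lipoprotein receptor Lrp1 at 601, 567 and 427 CPM in CD45+ and 8.93, 21.5 and 9.43 CPM in CD31+ cells (log2 fold change 5.34 ± 0.26, adjusted p = 4.69e-13). Both were higher in CD45+ cells, with the lowest level in replicate 3.

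Markers of vessel type were present for arteries and veins. Of 16 arterial genes 15 were higher in CD31+ cells. Gja4, a connexin of arterial endothelium, was at 218, 195 and 131 CPM in CD31+ and 0.949, 0 and 0 CPM in CD45+ cells (log2 fold change -8.90 ± 0.66, adjusted p = 4.06e-08). Of 12 venous genes 10 were higher in CD31+ cells. Nr2f2, the nuclear receptor of vein identity, was at 31.7, 37.8 and 41.3 CPM in CD31+ and 0.712, 0.868 and 0.286 CPM in CD45+ cells (log2 fold change -5.82 ± 0.42, adjusted p = 3.68e-11). Neither overlapped. Of 9 lymphatic genes 5 were tested, Flt4 alone was higher in CD31+ cells and Lyve1 in CD45+ cells. Prox1, the defining factor of lymphatic cells, was at 7.01, 5.08 and 0 CPM in CD31+ and 0, 0 and 3.43 CPM in CD45+ cells and did not pass, although it passed as higher in CD31+ cells without CD31+ replicate 3 or CD45+ replicate 3 (adjusted p = 0.017 to 0.038).

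Of 28 coagulation, fibrinolysis and vessel tone genes 26 were tested, 13 were higher in CD31+ and 4 in CD45+ cells. Vwf, von Willebrand factor, was at 531, 458 and 470.1 CPM in CD31+ and 20.6, 12.4 and 14.9 CPM in CD45+ cells (log2 fold change -4.91 ± 0.32, adjusted p = 2.37e-11). Thbd, thrombomodulin, was at 252, 170.3 and 231 CPM in CD31+ and 23.97, 17.9 and 27.8 CPM in CD45+ cells (log2 fold change -3.23 ± 0.37, adjusted p = 4.39e-07). Plaur, the urokinase receptor, was higher in CD45+ cells, at 70.0, 62.2 and 157 CPM in CD45+ and 7.65, 12.99 and 5.31 CPM in CD31+ cells (log2 fold change 3.48 ± 0.34, adjusted p = 1.63e-08). None of the 3 overlapped. The cyclooxygenase Ptgs2, F5 and Plau were also higher in CD45+ cells, and the call of Plau was lost without CD31+ replicate 1, CD31+ replicate 3, CD45+ replicate 1 or CD45+ replicate 2 (adjusted p = 0.069 to 0.20). Ednrb, a receptor for endothelin, did not pass, with CD45+ libraries on both sides of the CD31+ libraries at 427, 277 and 28.0 CPM in CD45+ and 132, 152 and 235 CPM in CD31+ cells.

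Molecules by which white blood cells stick to vessels fell on opposite sides. Of 18 endothelial ligands listed 15 were tested, and 12 were higher in CD31+ cells and 0 in CD45+ cells. Of 18 receptors of white blood cells 15 were higher in CD45+ and 1 (Ptger4) in CD31+ cells. Selp, P-selectin, was at 82.7, 44.1 and 92.5 CPM in CD31+ and 2.14, 0.578 and 0 CPM in CD45+ cells (log2 fold change -6.20 ± 0.53, adjusted p = 1.02e-07). Selplg, its ligand on white blood cells, was at 845, 795 and 791 CPM in CD45+ and 0, 1.13 and 0 CPM in CD31+ cells (log2 fold change 11.10 ± 0.89, adjusted p = 1.46e-07). The pair thus stood on opposite sides, without overlap in either gene. Vcam1 was at 52.1, 52.0 and 47.2 CPM in CD31+ and 0.949, 0.289 and 3.15 CPM in CD45+ cells (log2 fold change -5.11 ± 0.45, adjusted p = 5.58e-09). Itga4, the alpha chain of its receptor, was at 183, 189 and 231 CPM in CD45+ and 2.13, 5.37 and 0.884 CPM in CD31+ cells (log2 fold change 6.17 ± 0.45, adjusted p = 2.12e-10). Itgal, the alpha chain of the receptor for Icam1 and Icam2, was at 168, 199 and 276 CPM in CD45+ and 0.850, 2.54 and 0.589 CPM in CD31+ cells (log2 fold change 7.35 ± 0.50, adjusted p = 3.78e-11). Both integrin chains were higher in CD45+ cells.

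Icam1 and Cd47 did not follow that division. Icam1, the inducible ligand of leukocyte integrins, was at 83.3, 90.5 and 125 CPM in CD45+ and 87.4, 98.0 and 77.2 CPM in CD31+ cells (interval -0.47 to 0.85). Cd47, a surface signal that holds off uptake by macrophages, was at 517, 518 and 509 CPM in CD45+ and 510.4, 468 and 526 CPM in CD31+ cells (interval -0.18 to 0.25). The groups overlapped in both. Sirpa, the receptor for Cd47 on myeloid cells, was at 299, 274 and 265 CPM in CD45+ and 4.04, 0.565 and 4.42 CPM in CD31+ cells (log2 fold change 6.50 ± 0.32, adjusted p = 1.73e-13).

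**Figure D4:**
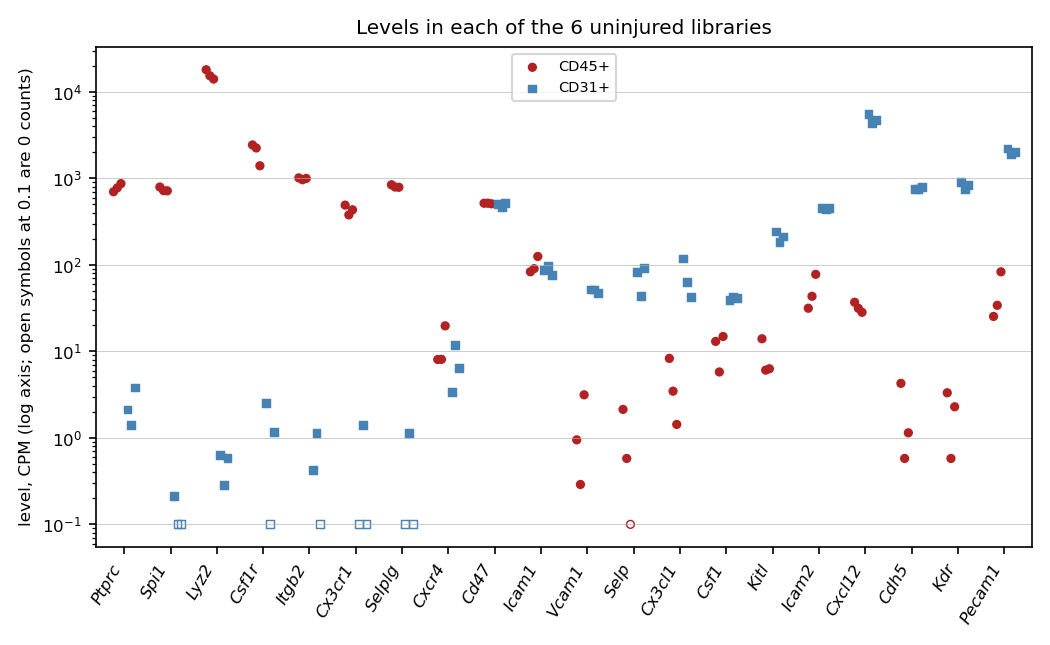
Each symbol is the level of a gene in 1 of the 6 libraries, in CPM on a log axis, red circles for CD45+ and blue squares for CD31+ cells; open symbols at 0.1 stand for 0 counts. Genes are arranged from those high in CD45+ cells (Ptprc to Selplg) through those whose groups overlap (Cxcr4, Cd47, Icam1) to those high in CD31+ cells (Vcam1 to Pecam1).

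Of 25 chemokine genes 16 were higher in CD45+ and 4 in CD31+ cells. Cxcl12, which retains blood cells through Cxcr4, was at 5512, 4377 and 4704 CPM in CD31+ and 37.0, 31.5 and 28.3 CPM in CD45+ cells (log2 fold change -7.23 ± 0.57, adjusted p = 6.75e-09). Its receptor Cxcr4 was at 8.07, 8.10 and 19.7 CPM in CD45+ and 3.40, 11.9 and 6.48 CPM in CD31+ cells (interval -0.49 to 1.96). Ackr3, which scavenges Cxcl12, was at 28.3, 24.6 and 33.3 CPM in CD31+ and 0.475, 0.578 and 0.572 CPM in CD45+ cells (log2 fold change -5.67 ± 0.49, adjusted p = 8.63e-10). The ligand and the scavenger were thus both higher in CD31+ cells, and Cxcr4 overlapped between the groups. Cx3cl1, the membrane-bound chemokine fractalkine, was at 118, 63.8 and 42.7 CPM in CD31+ and 8.31, 3.47 and 1.43 CPM in CD45+ cells (log2 fold change -4.04 ± 0.45, adjusted p = 1.30e-07). Its receptor Cx3cr1 was at 491, 379 and 434 CPM in CD45+ and 0, 1.41 and 0 CPM in CD31+ cells (log2 fold change 9.89 ± 0.65, adjusted p = 1.30e-10).

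Other chemokine genes were found on both sides. Ccl3, which attracts macrophages and lymphocytes, was at 82.1, 28.6 and 66.1 CPM with 0 counts in CD31+ cells (at least 235-fold higher). Ccl8, a product of resident macrophages, was at 318, 344 and 8.30 CPM, with replicate 3 far below the others. Cxcl9, an interferon-induced chemokine, was higher in CD31+ cells, at 24.9, 46.04 and 37.1 CPM in CD31+ and 0.712, 0.868 and 4.58 CPM in CD45+ cells (log2 fold change -4.14 ± 0.81, adjusted p = 2.13e-04). Of 20 chemokine receptors 13 were higher in CD45+ cells, and the 3 higher in CD31+ cells, Ackr1, Ackr2 and Ackr3, were all atypical receptors, which take up chemokines without classical signalling. The call of Ackr2 was lost without CD31+ replicate 1, CD45+ replicate 1 or CD45+ replicate 2 (adjusted p = 0.055 to 0.30).

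The growth factors Csf1, Il34, Kitl and Flt3l, which act on myeloid cells, were higher in CD31+ cells, while Csf2 and Csf3 of the same list had too few counts to be tested. Csf1, the macrophage growth factor, was at 38.9, 43.2 and 41.6 CPM in CD31+ and 13.1, 5.78 and 14.9 CPM in CD45+ cells (log2 fold change -1.86 ± 0.26, adjusted p = 2.71e-06). Il34, the other ligand of Csf1r, was at 16.4, 7.91 and 3.54 CPM in CD31+ cells with 0 counts in CD45+ cells (at least 37.4-fold higher). Kitl, the ligand of Kit, was at 244, 186 and 213 CPM in CD31+ and 14, 6.07 and 6.30 CPM in CD45+ cells (log2 fold change -4.57 ± 0.37, adjusted p = 4.01e-09). Csf1r was thus higher in CD45+ cells and both its ligands in CD31+ cells, while Kit overlapped. Flt3l, the dendritic cell growth factor, was at 18.1, 16.1 and 18.3 CPM in CD31+ and 9.26, 9.54 and 9.45 CPM in CD45+ cells (log2 fold change -0.89 ± 0.27, adjusted p = 0.0077). Its receptor Flt3 was at 16.4, 31.5 and 16.6 CPM in CD45+ and 2.34, 0.565 and 0.589 CPM in CD31+ cells (log2 fold change 4.10 ± 0.63, adjusted p = 2.60e-05).

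Of 28 cytokines listed 25 were tested, 13 were higher in CD45+ and 7 in CD31+ cells. Il1b, an inflammatory cytokine of myeloid cells, was at 814, 318 and 1425 CPM in CD45+ and 0, 0.565 and 0 CPM in CD31+ cells, a ratio of 4955 (95% counting interval 1371 to 40924). Igf1, a growth factor from macrophages, was at 166, 167 and 58.4 CPM in CD45+ and 11.7, 15.8 and 5.31 CPM in CD31+ cells (log2 fold change 3.57 ± 0.42, adjusted p = 6.48e-07). Il1b was highest and Igf1 lowest in CD45+ replicate 3. Of 29 cytokine receptors 17 were higher in CD45+ and 6 in CD31+ cells, with a median of 1.69. Osmr, the oncostatin M receptor, was at 419.6, 389 and 403 CPM in CD31+ and 0.475, 0 and 3.15 CPM in CD45+ cells (log2 fold change -8.40 ± 0.48, adjusted p = 1.69e-11), and its ligand Osm at 133, 46.3 and 219 CPM in CD45+ and 0, 0.565 and 0 CPM in CD31+ cells, a ratio of 775 (95% counting interval 214 to 6405). Il6ra was higher in CD45+ cells, at 213, 219 and 153 CPM in CD45+ and 2.55, 7.63 and 6.78 CPM in CD31+ cells (log2 fold change 5.15 ± 0.40, adjusted p = 5.57e-10). Il6st, the signalling chain that pairs with both receptors, was higher in CD31+ cells, at 290.4, 295 and 271 CPM in CD31+ and 50.8, 46.6 and 35.8 CPM in CD45+ cells (log2 fold change -2.68 ± 0.15, adjusted p = 5.15e-13).

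Related genes were set side by side in 16 pairs, a form known from blood cells before a broad or endothelial form. In 8 pairs the first was higher in CD45+ and the second in CD31+ cells, in 5 the first was higher in CD45+ cells and the second did not pass, in 2 both were higher in CD45+ cells and in 1 both were higher in CD31+ cells. Fermt3, the kindlin that activates integrins in blood cells, was at 495, 403 and 433 CPM in CD45+ and 0, 4.80 and 2.65 CPM in CD31+ cells (log2 fold change 7.59 ± 0.40, adjusted p = 2.29e-12). Fermt2, the broad kindlin, was at 197, 194 and 208 CPM in CD31+ and 0.475, 0.868 and 2.00 CPM in CD45+ cells (log2 fold change -7.50 ± 0.28, adjusted p = 6.43e-16). Neither kindlin overlapped between the groups. Nckap1l, a subunit of the WAVE actin complex, was at 259.6, 237 and 248 CPM in CD45+ and 0.213, 0.565 and 0.295 CPM in CD31+ cells (log2 fold change 9.39 ± 0.40, adjusted p = 1.13e-12). Nckap1, its broad form, was at 81.8, 73.2 and 63.4 CPM in CD31+ and 1.66, 0.289 and 0.286 CPM in CD45+ cells (log2 fold change -6.47 ± 0.31, adjusted p = 2.20e-14). The other pairs with opposite sides were Itgb2 and Itgb1, Parvg and Parva, the plastins Lcp1 and Pls3, Was and Wasl, Plcg2 and Plcg1, and Lyl1 and Tal1. The second members of these had log2 fold changes from -7.34 (Parva) to -1.11 (Itgb1).

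In other pairs the broad form was level or on the same side. Rac2, the Rac form of blood cells, was at 835, 808 and 1151 CPM in CD45+ and 0.213, 1.13 and 0.884 CPM in CD31+ cells (log2 fold change 10.34 ± 0.67, adjusted p = 1.61e-09). Rac1 was at 561, 534 and 537 CPM in CD45+ and 231, 541 and 841 CPM in CD31+ cells and did not pass, with CD31+ libraries on both sides of the CD45+ libraries. Ptpn11, Pik3ca, Inppl1 and Arhgdia, beside Ptpn6, Pik3cd, Inpp5d and Arhgdib, also did not pass. Inppl1 passed without CD45+ replicate 1 (adjusted p = 0.050) and Arhgdia without CD31+ replicate 1 or CD45+ replicate 3 (adjusted p = 0.0032 to 0.014). Coro1b and Prkca were higher in CD45+ cells like Coro1a and Prkcb. Fli1 and Erg were both higher in CD31+ cells, with log2 fold changes of -0.97 and -7.17.

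**Figure D5:**
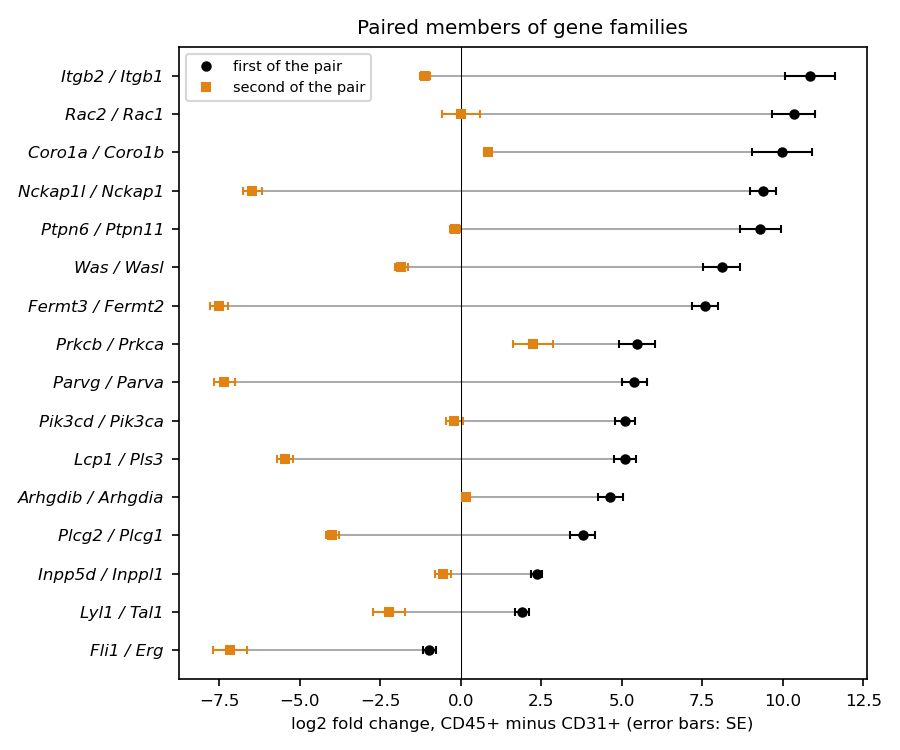
For 16 pairs of related genes the x axis gives the log2 fold change, CD45+ minus CD31+, with its SE, the first of the pair as a black circle and the second as an orange square, joined by a line. Of the first members only Fli1 lies left of 0, and the squares of Nckap1, Fermt2, Parva, Pls3 and Erg lie left of -5.

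Interferon-stimulated genes were higher in CD31+ cells in 20 of 30, and 3 were higher in CD45+ cells (median -1.08). Iigp1, an interferon-induced GTPase, was at 261, 288 and 554 CPM in CD31+ and 6.88, 13.9 and 9.16 CPM in CD45+ cells (log2 fold change -5.21 ± 0.53, adjusted p = 1.02e-07). Gbp4, a guanylate binding protein, was at 197, 202 and 339 CPM in CD31+ and 16.1, 19.4 and 27.5 CPM in CD45+ cells (log2 fold change -3.55 ± 0.31, adjusted p = 9.17e-10). Irf1, a factor downstream of interferon gamma, was at 395, 362 and 488 CPM in CD31+ and 128, 156 and 221 CPM in CD45+ cells (log2 fold change -1.30 ± 0.17, adjusted p = 5.45e-07). CD31+ replicate 3 was the highest in each of these, and no CD45+ library overlapped. Mx1, an antiviral GTPase, went the other way, at 57.9, 55.0 and 40.4 CPM in CD45+ and 0, 0.847 and 0.295 CPM in CD31+ cells (log2 fold change 7.10 ± 0.77, adjusted p = 7.76e-08), as did Ifitm1 and Oas1a.

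Immediate early genes, which respond within minutes and can be set off by cell isolation, were higher in CD45+ cells in 15 of 22 and in CD31+ cells in 1 (Fosl1), with a median of 1.10. Fos was at 1275, 657 and 1476 CPM in CD45+ and 139, 88.7 and 171 CPM in CD31+ cells (log2 fold change 3.09 ± 0.30, adjusted p = 5.07e-08). Nr4a1 was at 650.0, 431 and 541 CPM in CD45+ and 27.0, 13.6 and 106 CPM in CD31+ cells (log2 fold change 3.48 ± 0.70, adjusted p = 4.78e-04). Replicate 2 was the lowest of both groups in Fos and in Nr4a1. Dusp1, a phosphatase that turns such signals off, overlapped between the groups, at 1588, 794 and 2468 CPM in CD45+ and 1035, 665 and 1847 CPM in CD31+ cells (adjusted p = 0.37). The part of cell isolation in these levels was not tested.

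Ribosomal protein genes were higher in CD45+ cells in 24 of 24, by 0.62 to 1.36 on the log2 scale with a median of 1.11. Rplp0 was at 1536, 1632 and 1713 CPM in CD45+ and 751, 734 and 716 CPM in CD31+ cells (log2 fold change 1.15 ± 0.089, adjusted p = 1.07e-10). Of 26 respiratory chain genes 8 were higher in CD45+ cells (4 with the 6 libraries alone), 4 in CD31+ cells and 14 did not pass, with a median of 0.098. Of 22 broadly expressed reference genes 8 were higher in CD45+ cells, 3 in CD31+ cells and 11 did not pass (median 0.18). The medians of respiratory and reference genes were thus closer to 0 than that of the ribosomal genes, which ranged from 1.09 to 1.22 under the other scalings and filters tried.

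Of 20 glycolysis genes 13 were higher in CD45+ and 5 in CD31+ cells. Hk3, a hexokinase of myeloid cells, was at 80.2, 61.6 and 72.1 CPM in CD45+ and 0.425, 1.13 and 0.295 CPM in CD31+ cells (log2 fold change 6.83 ± 0.41, adjusted p = 2.45e-11). Hk1, the broad hexokinase, was at 121, 79.4 and 90.2 CPM in CD31+ and 34.9, 32.7 and 44.1 CPM in CD45+ cells (log2 fold change -1.39 ± 0.19, adjusted p = 1.11e-06). The hexokinases thus fell on opposite sides. Of 20 replication and mitosis genes 15 were higher in CD45+ cells (median 2.55), and 8 with limma voom. Mki67, a mark of dividing cells, was at 30.1, 22.8 and 32.1 CPM in CD45+ and 4.25, 8.76 and 0.589 CPM in CD31+ cells (log2 fold change 2.63 ± 1.01, adjusted p = 0.037). Its call was lost without CD31+ replicate 1, CD31+ replicate 3, CD45+ replicate 1, CD45+ replicate 2 or CD45+ replicate 3 (adjusted p = 0.052 to 0.12).

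Several genes used as markers of white blood cells were higher in CD31+ cells. Cd247, a signalling chain of the T cell receptor, was at 100.1, 120.3 and 76.0 CPM in CD31+ and 10.2, 22.8 and 41.5 CPM in CD45+ cells (log2 fold change -2.0 ± 0.44, adjusted p = 5.12e-04). Ebf1, a factor of early B cells, was at 345, 284 and 338 CPM in CD31+ and 18.7, 85.3 and 129 CPM in CD45+ cells (log2 fold change -2.06 ± 0.60, adjusted p = 0.0083). In CD31+ cells the defining chain of T cells Cd3d had 0 counts, and that of B cells Cd79b was at 0, 0.282 and 1.18 CPM. Both of these defining genes were at or near 0 in every CD31+ library. Zbtb46, a factor that marks dendritic cells, was at 72.5, 110.2 and 133 CPM in CD31+ and 20.9, 30.1 and 28.3 CPM in CD45+ cells (log2 fold change -1.99 ± 0.28, adjusted p = 2.40e-06). Fscn1, an actin bundler of mature dendritic cells, was at 233, 337 and 265 CPM in CD31+ and 27.5, 7.81 and 14 CPM in CD45+ cells (log2 fold change -4.05 ± 0.45, adjusted p = 5.26e-07). Gata3, a factor of type 2 lymphocytes, was at 31.03, 55.9 and 58.9 CPM in CD31+ and 25.9, 15.6 and 15.5 CPM in CD45+ cells (log2 fold change -1.35 ± 0.45, adjusted p = 0.017). None of these overlapped between the groups, and the call of Gata3 was lost without CD31+ replicate 2, CD31+ replicate 3, CD45+ replicate 2 or CD45+ replicate 3 (adjusted p = 0.065 to 0.076).

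Genes listed for other cells of muscle were measured in both populations. Stromal genes summed to 591, 468 and 533 CPM in CD45+ and 58.0, 68.4 and 36.0 CPM in CD31+ libraries, and Schwann cell genes to 480.3, 479.8 and 296 CPM and 82.9, 87.6 and 86.7 CPM. Both sums were thus higher in every CD45+ library, and their part in the differences between the populations was not tested. The stromal sum did not reflect most single genes. Of 12 stromal genes 3 (Gsn, Pi16 and Dpt) were higher in CD45+ cells, 1 (Cygb) in CD31+ cells and 8 did not pass. Over all genes tested, 25.1% were higher in CD45+ and 25.5% in CD31+ cells. Pdgfra, the defining receptor of stromal cells, was at 1.42, 0.578 and 0.859 CPM in CD45+ and 2.98, 1.98 and 1.77 CPM in CD31+ cells. Of 11 muscle fiber genes tested (14 listed) 2 were higher in CD45+ cells and 1 in CD31+ cells, and Acta1, skeletal actin, was at 52.0, 49.5 and 29.8 CPM in CD45+ and 67.0, 69.5 and 50.4 CPM in CD31+ cells. Of 10 muscle stem cell genes 1 (Sdc4) was higher in CD45+ and 2 (Des and Heyl) in CD31+ cells, and the defining factor Pax7 had 0 counts in all but 1 library. Of 5 Schwann cell genes tested (8 listed) 3, Mag, Mbp and Pmp22, were higher in CD45+ cells. Red cell transcripts were uneven in both groups, with Hbb-bs, adult beta globin, at 338, 0 and 0.286 CPM in CD45+ and 143, 1.98 and 254 CPM in CD31+ cells.

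In muscle taken 1 day after cardiotoxin, 8643 genes (53.1%) passed between CD45+ and CD31+ cells in 6 further libraries of the same fit. Of the 4077 genes higher in uninjured CD45+ cells, 2536 (62.2%) were higher in injured CD45+ cells too, which is 70.3% of the 3607 called there, and 224 were called the other way. Of the 4152 genes higher in uninjured CD31+ cells, 3189 (76.8%) were higher in injured CD31+ cells too, which is 63.3% of the 5036 called there, and 89 were called the other way. The numbers called after injury moved with the scaling, to 4060 in CD45+ and 4401 in CD31+ cells with RLE scaling. They also moved with single libraries. Without 1 injured CD45+ library they were 3777 to 3830 in CD45+ and 3913 to 4213 in CD31+ cells. Without 1 injured CD31+ library they were 3346 to 3374 and 4688 to 4782, and without 1 uninjured library 3613 to 4101 and 4470 to 5136. The shares above come from the reported fit alone. The change of the log2 fold change with injury passed in 2780 genes (17.1%), in 1841 of them towards CD31+ cells and in 939 towards CD45+ cells (1604 and 1184 with RLE scaling). Pecam1 and Ptprc held their sides: Pecam1 was at 1891, 2081 and 1865 CPM in injured CD31+ and 9.10, 17.4 and 16.8 CPM in injured CD45+ cells, and Ptprc at 10.3, 2.72 and 3.17 and 429, 471 and 548 CPM in the same order.

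The class II genes H2-Ab1, H2-Aa, H2-Eb1 and Cd74 differed less after injury, each with a change that passed with edgeR. With limma voom the changes of H2-Ab1, H2-Aa and Cd74 had adjusted p of 0.068, 0.053 and 0.061. H2-Ab1 was at 2166, 3048 and 2637 CPM in injured CD45+ and 214, 8.54 and 2.38 CPM in injured CD31+ cells, a change of -8.69 ± 1.64 against the uninjured log2 fold change (adjusted p = 0.0013). Without injured CD31+ replicate 1, the highest of the injured CD31+ libraries, the change of H2-Ab1 was -4.88 (adjusted p = 2.34e-04). Arg1, arginase of wound macrophages, was at 16.8, 12.1 and 8.59 CPM in CD45+ and 1.28, 0.847 and 0 CPM in CD31+ cells before injury. After injury Arg1 was at 3055, 2763 and 2389 CPM in CD45+ and 0.154, 0.194 and 0.794 CPM in CD31+ cells, a change of 8.69 ± 1.26 (adjusted p = 6.62e-05). Injured CD31+ replicate 1 held more transcripts of white blood cells than the other injured CD31+ libraries, with Lyz2 at 108, 1.75 and 0.159 CPM. Cd81 was at 86.2, 129.6 and 153 CPM in injured CD45+ and 3058, 3321 and 3111 CPM in injured CD31+ cells, a change of -3.42 ± 0.21 (adjusted p = 2.82e-10). Every injured CD45+ library was below every uninjured CD45+ library in Cd81, while CD31+ cells were high in both.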

How the data were processed

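RNA of 1000 sorted cells per library was primed with oligo(dT) and made into Nextera XT libraries, read as 25-base pairs on a NextSeq500, per the labels' protocols. The deposited table holds raw counts per gene symbol for 24 libraries. The authors aligned reads with STAR 2.5.4 to mm10 and counted them with featureCounts, per the submitters' processing notes; the annotation, strand setting and handling of shared reads were not given in the sources used here, so overlapping, antisense and near-identical genes are uncertain.

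All 24 libraries (8 groups of 3) entered 1 fit with edgeR 4.0.16 in R 4.3.3: the default low-count filter over the 8 groups, TMM scaling, a robust quasi-likelihood test with 16 residual degrees of freedom, and Benjamini-Hochberg adjustment over 16263 genes at 0.05. An adjusted p given with no setting comes from this fit, and one given without a library or under another filter from an edgeR refit. The common biological coefficient of variation was 0.224. Standard errors equal the absolute log2 fold change over the root of F. A fold against a group at 0 counts used a floor of 3 counts over the group, and with 1 to 3 counts the ratio is given with an exact 95% counting interval. Levels are not per length, and ranks by abundance and summed levels of lists were made without a correction for length. The scripts were tested on simulated counts.

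The comparison and the gene lists were chosen with earlier results of these data known, and lists are described by counts and medians without a set test. Named genes are the sort markers, the 12 largest differences in each direction with a mean of at least 50 CPM and no overlap, the 8 most abundant over 2-fold in each group, up to 6 of each list by adjusted p plus those against its direction, the related pairs, the 6 most abundant with an interval within 0.5 of 0, and the 4 largest changes with injury in each direction. Some genes that this rule selects are not reported here. Other genes named were chosen after their values were seen. Alternatives were another scaling (RLE), no filter, a mean of at least 1 CPM, DESeq2 1.42.0, voom from limma 3.58.1, the 6 libraries alone, a replicate block and leaving out each library. Counts of replicate libraries differed by more than sampling noise (chi-square per degree of freedom 6.45 to 18.9). Numbers were not treated as pairs, because the series does not say that they mark 1 mouse. Deviations of libraries with the same number had correlations of 0.0090, 0.0087 and 0.023, and those with unlike numbers -0.013 to 0.0048. Such values cannot decide whether libraries share a mouse.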

Additional observations from a re-analysis of the deposited data

Results flagged for a closer look

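Of the 51 genes selected for their size, level or likeness, as sort markers or for the size of their change with injury, 21 differed between uninjured and injured muscle in their CD45+ to CD31+ difference, by edgeR's test of that difference with adjustment over all genes. The change is given on the log2 scale as injured minus uninjured, so that a negative value means a shift towards CD31+ cells. In 16 of the 21 it was negative and in 5 positive. Arg1, Pdpn, Pla2g2d, Cd79a and Ccl5 were selected by that change alone, so that their passing was fixed by the choice. Among the other 46 genes 16 passed, 13 negative and 3 positive, and among all genes tested 17.1% passed, 1841 negative and 939 positive. Apart from the sort markers, these 46 genes were selected by their uninjured levels, which also enter the change. Their number and direction therefore cannot be compared with those of all genes. Genes with 0 counts in a group (Mgl2, Ccl5, Cd48, Ear2, Sox18, Samd5 and Ptprr before injury) have fitted changes that depend on the small prior count and are no measure of size.

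Genes known from white blood cells had 12 of the 16 negative changes. Pla2g2d, a phospholipase, changed by -12.1 (adjusted p = 0.0070), from 157, 206 and 16.03 CPM in uninjured to 0.253, 0 and 0 CPM in injured CD45+ cells. Retnla changed by -11.5 (adjusted p = 0.0015), Mgl2 by -9.31, Ear2 by -7.87, Lyz1 by -8.47, Ccl5 by -10.1 and Cd48 by -6.60. Cd79a, of B cells, changed by -11.0 (adjusted p = 7.85e-05), from 199, 466 and 915 to 1.01, 1.47 and 9.34 CPM in CD45+ cells. The class II genes H2-Ab1, Cd74, H2-Aa and H2-Eb1 changed by -8.69, -8.23, -7.87 and -7.82. Leaving out injured libraries was tried after the data had been seen. Without injured CD31+ replicate 1, which held leukocyte transcripts, the changes of Mgl2, Retnla, Lyz1 and Ccl5 were -5.60, -6.57, -4.44 and -6.92 and did not pass (adjusted p = 0.39, 0.61, 1.00 and 0.45). Without it the changes of H2-Ab1, Cd74, H2-Aa and H2-Eb1 were -4.88, -5.63, -3.61 and -4.53, and all 4 passed (adjusted p = 2.34e-04, 7.72e-04, 0.016 and 3.45e-04). That of Pla2g2d did not pass without injured CD31+ replicate 3 (adjusted p = 0.13). That of Cd48 did not pass without any 1 of 9 libraries: CD31+ replicate 1, CD31+ replicate 2, CD31+ replicate 3, CD45+ replicate 1, CD45+ replicate 2, CD45+ replicate 3, injured CD45+ replicate 1, injured CD45+ replicate 2 or injured CD45+ replicate 3 (adjusted p = 0.061 to 0.097).

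Smaller negative changes were those of Cd81 (-3.42), Pecam1 (-1.63), Hsp90ab1 (-1.08) and Eef2 (-0.626). Pecam1 changed by -0.90 without CD45+ replicate 3, in which Pecam1 was highest among uninjured CD45+ cells, and its change did not pass without CD31+ replicate 2, CD31+ replicate 3, CD45+ replicate 3 or injured CD45+ replicate 1 (adjusted p = 0.050 to 0.089).

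Positive changes were those of Arg1 (8.69), Pdpn (7.68, adjusted p = 2.58e-05), Ptprr (6.67), Samd5 (6.03) and Sox18 (5.83). Pdpn, podoplanin, was at 5.22, 13.6 and 22.04 CPM in CD45+ and 11.3, 6.21 and 0 CPM in CD31+ cells before injury and at 381, 469 and 452 and 0.154, 1.16 and 1.59 CPM after it. Sox18 had 0 counts in uninjured CD45+ cells and was at 0, 1.96 and 0.701 CPM in injured ones, and its change did not pass without injured CD45+ replicate 2 (adjusted p = 0.074). Samd5 did not pass without CD45+ replicate 1, CD45+ replicate 2, CD45+ replicate 3 or injured CD45+ replicate 2 (adjusted p = 0.052 to 0.21), and Ptprr without CD45+ replicate 1, CD45+ replicate 2 or injured CD45+ replicate 2 (adjusted p = 0.050 to 0.11). With limma voom 15 of the 21 changes passed, with DESeq2 20.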

How the results depend on the processing

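Of 16263 genes, 4077 were higher in CD45+ and 4152 in CD31+ cells. Over the alternatives on all libraries these counts ranged from 3964 (limma voom) to 4330 (no filter) and from 3606 (no filter) to 4133 (DESeq2), and without 1 library from 3795 to 4178 and from 3587 to 3919. The 6 libraries alone gave 3278 and 3187. The replicate block gave 3124 and 3024 on the 6 libraries alone and 4018 and 4039 on all 24. With the block on 24 libraries 18 of the 21 changes with injury given above passed. Libraries with the same number each had their highest correlation with each other, a hint from the data and not from the design. Between 73.6 and 98.8% of the calls were shared, 0 of them with opposite sign. In the lists, T cell genes higher in CD45+ cells numbered 11 with DESeq2 (17 in the reported fit), mast cell genes 4 with limma voom, 3 with the 6 libraries alone and 4 with the replicate block on them (7), respiratory chain genes 4 with the 6 libraries alone and 3 with the replicate block on them (8), and mitosis genes 8 with limma voom (15). All other list counts, taken in the direction with more calls, stayed within 1.5 times of the reported ones. Counts in the other direction, and lists with fewer than 3 calls in each direction, were not compared between settings. The cause of the shifts was not tested. DESeq2 gave no adjusted p for 10 of all genes tested, some of them on the lists.

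Of 281 genes named or selected by the rule for naming, 49 changed their call or direction under some alternative. The 8 that changed direction had not passed: Eef2 (0.018 with RLE scaling and with DESeq2, 0.10 with no filter, -0.018 to 0.078 without 1 library), Lpl (0.066 with no filter, 0.027 with limma voom, 0.0020 with the replicate block, -0.20 to 0.31 without 1 library), Elmo1 (-0.0049 with limma voom, -0.050 to 0.16 without 1 library), Ednrb (-0.087 with limma voom, -0.17 to 1.10 without 1 library), and, without 1 library, Hbb-bs (-9.62 to 0.63), Itm2b (-0.087 to 0.44), Ptpn11 (-0.28 to 0.079) and Rac1 (-0.27 to 0.49). With DESeq2 the calls of Ebf1, Cd8b1 and Lyve1 were lost (adjusted p = 0.066, 0.11 and 0.14). With limma voom those of Cma1, Serping1, Pi16, Ccl8, Tpsb2, Mki67 and Plau were lost (0.078, 0.11, 0.083, 0.055, 0.19, 0.13 and 0.11). RLE scaling and DESeq2 added Arhgdia (0.034 and 0.015). No filter lost Flt3l, Cd46, Tpsb2, Mki67, Ackr2 and Mcoln1 (0.18, 0.13, 0.090, 0.088, 0.067 and 0.20). The 6 libraries alone lost Cma1, Ccl8, Lyve1, Vegfb and Plau (0.096, 0.072, 0.14, 0.062 and 0.095). The replicate block on the 6 libraries lost Prkca, H2-D1, Plau and Vegfb (0.061, 0.074, 0.12 and 0.076) and added Acta1 (0.042). On 24 libraries the block lost Plau (0.052) and added Mcpt4 (11.21, adjusted p = 1.43e-08). At these depths a gene needs about 0.638 to 0.884 CPM in a library to be told from a count of 0.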
